A study of Mus musculus with 8 samples.

Results

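The genes described here flank Mc1r, the gene deleted in the hepatocytes of Mc1r LKO mice. They are Chmp1a, Cdk10, Spata2l, Vps9d1, Zfp276, Fanca, Spire2, Tcf25, Def8 and Dbndd1, 10 of the 55487 genes counted. They were chosen by symbol as neighbours of Mc1r on chromosome 8, with earlier results of these data known. Of these 10 genes, 9 were abundant enough to be tested and Dbndd1 was not. Liver RNA was sequenced from 4 control and 4 Mc1r LKO mice. Mc1r LKO mice carry the floxed Mc1r allele (Mc1rfl/fl) and the AlbCre/+ transgene, in which the albumin promoter drives Cre recombinase in hepatocytes. Whether other cells of the liver keep Mc1r was not measured here. Control mice were Mc1rfl/fl without the transgene, so both groups carry the floxed allele at this locus. All mice were male and ate a cholesterol-rich Western diet for 12 weeks from 8 weeks of age. The comparison asks whether genes next to the targeted locus differ between the genotypes, and whether any difference follows the distance from Mc1r.

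MC1R is a melanocortin receptor that couples to adenylyl cyclase and raises cyclic AMP, and it is known best for its role in pigment cells. Its neighbours have unrelated jobs. CHMP1A is part of the ESCRT-III machinery that cuts membranes, VPS9D1 and DEF8 belong to endosome and lysosome traffic, and DBNDD1 carries a dysbindin domain. CDK10 is a cyclin-dependent kinase activated by cyclin M. FANCA is a subunit of the Fanconi anaemia core complex in the repair of DNA crosslinks. SPIRE2 nucleates actin filaments, TCF25 works in ribosome-associated quality control, ZFP276 is a zinc-finger protein, and SPATA2L is the little-studied paralog of SPATA2, the adaptor that joins the deubiquitinase CYLD to the linear ubiquitin ligase LUBAC.

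Mc1r itself (ENSMUSG00000074037, chr8:123407107-123410744 of GRCm38, + strand) had 0 counts in all 8 mice. CPM here are counts divided by the TMM-normalized library size and scaled to 1e6. A count of 0 allows up to 3 counts, between 0.121 and 0.279 CPM over the 8 libraries, which accounts for counting error alone. The deletion could therefore not be checked in these libraries. The total count was between 10773151 and 24763375 per mouse. As a check of the tissue, the summed level of 8 hepatocyte genes such as Alb and Ttr was between 74672 and 95586 CPM in control mice. It was between 82716 and 110522 CPM in Mc1r LKO mice. Genes of other cell types were also present, with sums of up to 514 CPM for Kupffer cells and macrophages and 361 for stellate cells. The highest sums were 255 CPM for cholangiocytes, 175 for endothelial cells, 6.83 for neutrophils and 3.81 for lymphocytes. In bulk tissue, fewer cells of a type and less RNA per cell cannot be told apart. In a principal component analysis of the tested genes, Mc1r LKO mouse 182 (score 59.3) and control mouse 181 (27.8) stood apart on the first component, which held 37.6% of the variance, and the scores of the remaining mice were between -28.2 and -7.03.

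The flanking genes span 311.2 kb, with 8 on the side of lower coordinates and 2, Def8 and Dbndd1, on the other. Of the 10 genes, 5 are on each strand. RefSeq promoter windows of GRCm38.p6, from 250 bases before to 50 after a start site, were held for 6 of the 10 genes and for Mc1r, and there was none for Spata2l, Vps9d1, Zfp276 or Dbndd1. The windows below are those of Mc1r, of its abundant neighbour Tcf25, of the scarce Spire2 and of Cdk10, the gene that overlaps Spata2l. Capitals mark CpG dinucleotides, and each sequence is on the + strand of the genome, the strand of these genes.
Mc1r, chr8:123406832-123407131: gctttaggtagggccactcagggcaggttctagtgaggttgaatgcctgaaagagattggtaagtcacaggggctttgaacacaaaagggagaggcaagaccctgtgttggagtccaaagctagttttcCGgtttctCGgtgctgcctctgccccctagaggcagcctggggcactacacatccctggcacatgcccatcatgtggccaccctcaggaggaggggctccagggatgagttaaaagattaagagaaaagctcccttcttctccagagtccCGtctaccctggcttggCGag
Tcf25, chr8:123373461-123373760: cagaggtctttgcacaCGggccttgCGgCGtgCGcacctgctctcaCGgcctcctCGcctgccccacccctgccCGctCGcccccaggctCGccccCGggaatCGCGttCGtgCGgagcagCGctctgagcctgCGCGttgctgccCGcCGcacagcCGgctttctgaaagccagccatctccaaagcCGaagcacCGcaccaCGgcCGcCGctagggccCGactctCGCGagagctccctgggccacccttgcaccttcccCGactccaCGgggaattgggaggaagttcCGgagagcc
Spire2, chr8:123332463-123332762: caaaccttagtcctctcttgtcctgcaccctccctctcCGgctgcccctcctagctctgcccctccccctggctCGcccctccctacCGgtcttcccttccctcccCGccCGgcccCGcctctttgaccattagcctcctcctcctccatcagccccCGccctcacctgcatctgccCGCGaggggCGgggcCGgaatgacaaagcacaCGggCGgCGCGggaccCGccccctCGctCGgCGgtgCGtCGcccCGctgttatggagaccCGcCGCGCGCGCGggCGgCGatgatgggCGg
Cdk10, chr8:123224591-123224890: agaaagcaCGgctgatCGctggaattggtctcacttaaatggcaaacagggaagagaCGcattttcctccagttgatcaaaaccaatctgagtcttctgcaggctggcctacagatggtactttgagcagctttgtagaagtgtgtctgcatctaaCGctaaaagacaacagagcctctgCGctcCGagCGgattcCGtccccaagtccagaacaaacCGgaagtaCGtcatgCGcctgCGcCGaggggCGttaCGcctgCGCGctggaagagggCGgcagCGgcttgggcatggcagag

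The Mc1r window holds 4 CpG, and 31.4% of the 32851 mouse windows hold fewer. The windows of Tcf25 and Spire2 hold 31 each, more than 89.4% of all windows, while that of Cdk10 holds 19 and that of Chmp1a 39. CpG content did not order the levels in these livers, since Tcf25 had the highest level of the 10 genes and Spire2 one of the lowest. Short motifs were searched on both strands. TGACG, the core of the site of the cyclic AMP factor CREB, was found in the Cdk10 window and in no other of the 6 genes or Mc1r, and 20.8% of all windows hold it. AGAACA, an arm of the glucocorticoid receptor site, was also found in the Cdk10 window alone, against 19.0% of all windows. The GC box GGGCGG was found in the windows of Chmp1a, Cdk10, Fanca, Spire2 and in 1 of the 2 windows of Def8, against 35.7% of all windows.

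Levels between genes are compared per kilobase of exon (RPKM, from the TMM-normalized CPM and the exonic length in the tables). Over control mice, the mean was 30.2 RPKM for Tcf25, 17.4 for Chmp1a and 11.5 for Def8. Spata2l (5.18 RPKM), Cdk10 (4.34), Vps9d1 (3.66) and Zfp276 (3.44) formed a middle group. Spire2 (0.459 RPKM) and Fanca (0.0898 RPKM) were scarce, and Dbndd1 was at 0 in control mice. In Mc1r LKO mice the order of Tcf25, Chmp1a and Def8 was kept, and Spata2l, at 10.4 RPKM, stood just below Def8 at 11.1 RPKM.

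**Figure D1:**
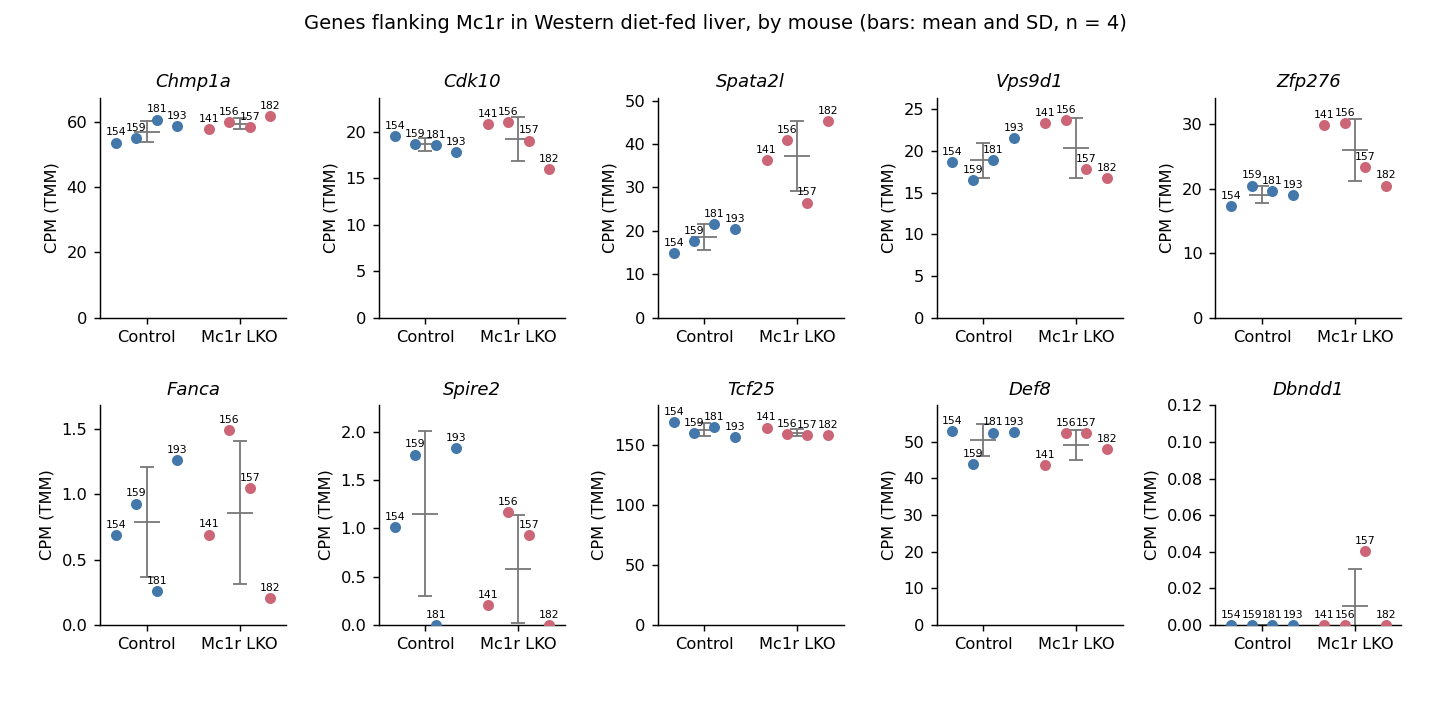
Level of each flanking gene in each mouse (CPM after TMM normalization, y axes from 0), with control mice in blue, Mc1r LKO mice in red, mouse numbers beside the points, and grey bars for the mean and SD of 4 mice. For Spata2l every Mc1r LKO mouse (26.5 to 45.3 CPM) lies above every control mouse (14.8 to 21.6 CPM), while the groups of the other genes overlap.

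Spata2l (ENSMUSG00000033594, chr8:123229801-123236233, - strand, 171 kb from Mc1r) was the flanking gene that differed most clearly between the genotypes. Control mice 154, 159, 181 and 193 had 14.8, 17.6, 21.6 and 20.3 CPM. Mc1r LKO mice 141, 156, 157 and 182 had 36.4, 40.9, 26.5 and 45.3 CPM. The lowest Mc1r LKO mouse, 157, was above the highest control mouse, 181, so that the groups did not overlap. Control mice averaged 18.6 ± 3.02 CPM (SD, n = 4) and Mc1r LKO mice 37.3 ± 8.04 CPM (SD, n = 4). The log2 fold change was 1.00 (standard error 0.17, 95% confidence interval 0.61 to 1.38). Its p-value was 1.73e-04 unadjusted and 0.579 after Benjamini-Hochberg adjustment over the 13400 genes tested, from edgeR's quasi-likelihood test, and a two-sided exact permutation test of the means gave p = 0.0286, the smallest that 4 mice against 4 allow. With the DESeq2 Wald test the adjusted p-value of Spata2l was 6.66e-04, below 0.05, so its call after adjustment depends on the test. Among the 741 tested genes of chromosome 8, Spata2l had the smallest unadjusted p-value, and 6 of them had a larger log2 fold change.

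Zfp276 (ENSMUSG00000001065, chr8:123254195-123269745, + strand, 137 kb from Mc1r) was also higher in Mc1r LKO mice, by less. Control mice 154, 159, 181 and 193 had 17.2, 20.5, 19.5 and 19.0 CPM. Mc1r LKO mice 141, 156, 157 and 182 had 29.9, 30.2, 23.3 and 20.4 CPM. Mc1r LKO mice 141 and 156 were far above the control mice, whereas mouse 182 fell just below control mouse 159, so that the groups overlapped by that pair. The log2 fold change was 0.44 (standard error 0.14, 95% confidence interval 0.14 to 0.75), with an unadjusted p of 0.00819 and an adjusted p of 0.734 from edgeR's quasi-likelihood test. A two-sided exact permutation test of the means gave p = 0.0571, which does not pass 0.05. Mc1r LKO mice 157, 141 and 156 had the same order in Zfp276 as in Spata2l, while mouse 182 had the most Spata2l and the least Zfp276 of its group. In Vps9d1 and Cdk10, which were not called, all Mc1r LKO mice had the order of Zfp276, rising from 182 through 157 and 141 to 156.

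With an unadjusted p under 0.05 and a log2 fold change of 0.25 or more in size, 2 of the 9 tested flanking genes were called in edgeR. Both were higher in Mc1r LKO mice. These are the limits that the study's methods name, while its results section describes the p limit as adjusted. Of all 13400 genes tested, 5.31% were called in either direction, 2.64% higher and 2.66% lower, and 6.72% had an unadjusted p under 0.05 at any fold change. The groups did not overlap in 1 of the 9 genes, against 4.16% of all genes tested (2.63% with Mc1r LKO mice above and 1.54% with them below). Because the flanking genes were chosen with earlier results of these data known, these shares are a description only. After adjustment 0 of the 9 flanking genes passed 0.05, as did 0% of all genes tested in edgeR, where 901 genes had an unadjusted p under 0.05, and DESeq2 placed 17 genes past its adjusted threshold. The median log2 fold change of the 9 genes was 0.062, and 6 were higher and 3 lower, beside a median of -0.011 and 47.9% higher over all genes tested. Without Spata2l the median was 0.052, and with all 9 genes it was -0.0011 when Mc1r LKO mouse 156 was left out and 0.13 when mouse 182 was, so the median gives no direction. All 8 hepatocyte genes were also higher in Mc1r LKO mice, with log2 fold changes of 0.11 to 0.39. So were the 4 tested cholangiocyte genes (median 0.37) and the 2 tested neutrophil genes (median 0.46). All 6 Kupffer cell and macrophage genes were lower, while endothelial and stellate cell genes went in either direction. None of these genes had an unadjusted p under 0.05 in edgeR. The part of these shifts in the values of Spata2l and Zfp276 was not tested.

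The tested genes on either side of Spata2l were not called. The untested gene model 4933417D19Rik, on the opposite strand, shares 36 exonic bases with Spata2l and 4 with Vps9d1. Cdk10 (ENSMUSG00000033862, chr8:123224842-123232250) runs toward Spata2l on the opposite strand, and their gene bodies overlap by 2450 bases. Their exons share 417 bases, 11.6% of the exonic length of Spata2l, but reads were counted by strand, so these exons do not share counts. Cdk10 had between 17.9 and 19.6 CPM in control and up to 21.1 CPM in Mc1r LKO mice, with mouse 182, the highest for Spata2l, at the lowest value of the 8 mice. Its log2 fold change was 0.043 (95% confidence interval -0.19 to 0.28, adjusted p = 0.964 in edgeR). On the other side, Vps9d1 (ENSMUSG00000001062, chr8:123242356-123254348) ends 6122 bases before the start of Spata2l on the same strand. It had between 16.5 and 21.5 CPM in control and between 16.8 and 23.7 CPM in Mc1r LKO mice (log2 fold change 0.10, -0.21 to 0.41, adjusted p = 0.921 in edgeR). Vps9d1 and Zfp276 are head to head, with 154 bases of overlap at their starts. Zfp276 was called and Vps9d1 was not, but their confidence intervals overlap (0.14 to 0.75 for Zfp276). A difference between these genes was not tested. Chmp1a (ENSMUSG00000000743, chr8:123204264-123212763) had between 53.6 and 60.7 CPM in control and between 57.7 and 61.8 CPM in Mc1r LKO mice (log2 fold change 0.062, -0.11 to 0.23, adjusted p = 0.919 in edgeR).

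**Figure D2:**
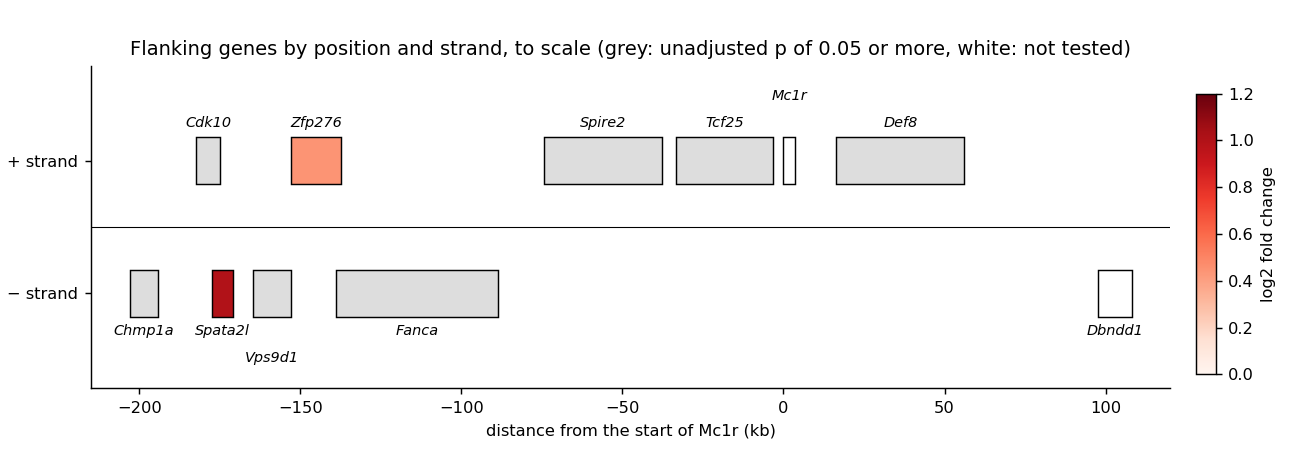
Gene bodies of the flanking genes and Mc1r, to scale by distance in kb from the start of Mc1r (x axis) and by strand (y axis), coloured by the log2 fold change of Mc1r LKO minus control where the unadjusted p was under 0.05. The coloured genes, Spata2l (1.00) and Zfp276 (0.44), lie among grey genes that were not called.

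Because each value of Spata2l can be read against a neighbour of the same library, the scaling of that library largely cancels from their difference. The prior count of 2 in log2 CPM keeps it from cancelling fully. The log2 CPM of Spata2l minus that of Cdk10 was -0.40, -0.088, 0.22 and 0.19 in control mice 154, 159, 181 and 193. It was 0.80, 0.95, 0.47 and 1.49 in Mc1r LKO mice 141, 156, 157 and 182. Each Mc1r LKO mouse was thus above each control mouse. The difference is one of CPM, not corrected for length, so only its change between mice can be read and not which gene was the more abundant. Against the 6 flanking genes that had at least 10 counts in every mouse, the mean difference was higher in Mc1r LKO mice by 0.56 (Zfp276) to 1.03 (Def8), and the groups did not overlap for any of the 6. The narrowest separation was against Zfp276, where the highest control mouse was at 0.15 and the lowest Mc1r LKO mouse at 0.18. A two-sided exact permutation test gave p = 0.0286 for each of the 6 genes, the smallest that 4 mice against 4 allow. All 6 rest on the same Spata2l values, and Spata2l was singled out for its difference, so they are no separate evidence of it.

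**Figure D3:**
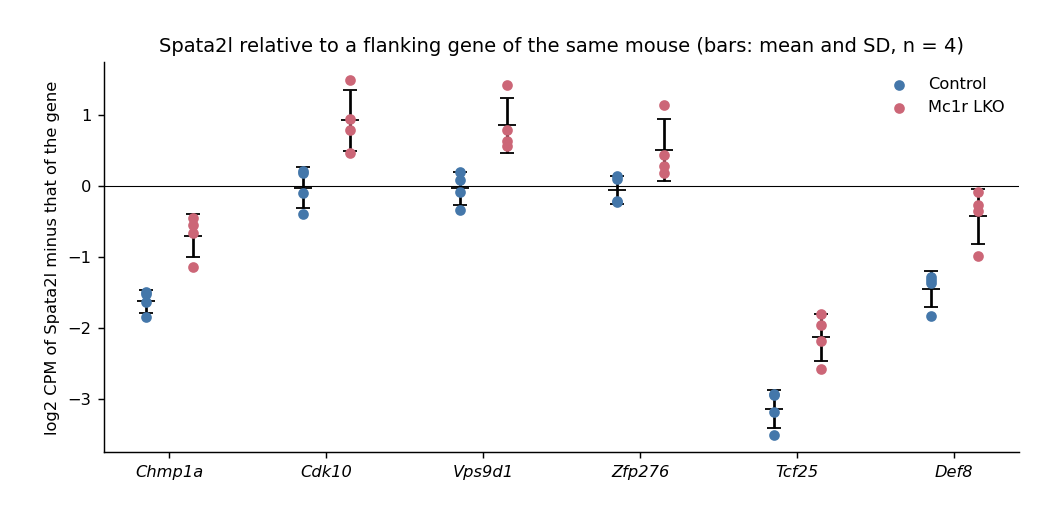
Log2 CPM of Spata2l minus log2 CPM of a flanking gene in the same mouse (y axis), for the 6 flanking genes with at least 10 counts in every mouse (x axis), with black bars for the mean and SD of 4 mice. The red points of Mc1r LKO mice lie above the blue points of control mice for each gene, with the smallest gap for Zfp276 (0.15 against 0.18).

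The tested genes nearest to Mc1r showed no detectable difference. Tcf25 (ENSMUSG00000001472, chr8:123373753-123403835) ends 3272 bases before Mc1r on the same strand and was the most abundant flanking gene. Control mice 154, 159, 181 and 193 had 169, 160, 165 and 157 CPM. Mc1r LKO mice 141, 156, 157 and 182 had 164, 159, 158 and 158 CPM. The values of Mc1r LKO mice lay within the range of control mice, and the log2 fold change was -0.023 (standard error 0.074, 95% confidence interval -0.19 to 0.14, adjusted p = 0.973 in edgeR). Def8 (ENSMUSG00000001482, chr8:123423527-123463270), 12783 bases beyond Mc1r, had between 43.9 and 53.0 CPM in control and between 43.7 and 52.3 CPM in Mc1r LKO mice. Each group had one low mouse, control 159 and Mc1r LKO 141, and the log2 fold change was -0.042 (-0.26 to 0.17, adjusted p = 0.962 in edgeR). Afg3l1, a subunit of a mitochondrial protease that lies 67.2 kb from Mc1r, was not called either (log2 fold change 0.011, -0.19 to 0.21, adjusted p = 0.990 in edgeR).

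Spire2 and Fanca were near the limit of detection and varied widely among mice of each genotype. Spire2 (ENSMUSG00000010154, chr8:123332713-123369515, 37.6 kb from Mc1r) had 19, 19, 0 and 45 counts in control mice 154, 159, 181 and 193. It had 3, 18, 23 and 0 counts in Mc1r LKO mice 141, 156, 157 and 182. The mice with 0 counts, 181 and 182, are those that stood apart on the first principal component, one of each genotype. Their count of 0 allows up to 0.156 CPM in mouse 181 and 0.153 CPM in mouse 182, and the part of that axis in the result was not tested. The log2 fold change of -0.96 had a 95% confidence interval of -3.20 to 1.27 (adjusted p = 0.907 in edgeR), and it was -1.48 when Mc1r LKO mouse 156 was left out and -0.53 when mouse 182 was.

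Fanca (ENSMUSG00000032815, chr8:123268300-123318576, 88.5 kb from Mc1r) had 13, 10, 5 and 31 counts in control mice 154, 159, 181 and 193. It had 10, 23, 26 and 4 counts in Mc1r LKO mice 141, 156, 157 and 182. Mice 181 and 182 were again the lowest of their groups. The log2 fold change of 0.12 had a 95% confidence interval of -1.21 to 1.45 (adjusted p = 0.985 in edgeR), and it was -0.26 without Mc1r LKO mouse 156 and 0.50 without control mouse 193, so no direction can be given. Fanca and Zfp276 end in each other on opposite strands, with 920 exonic bases in common. Dbndd1 (ENSMUSG00000031970, chr8:123504718-123515463, 94.0 kb from Mc1r) had 0 counts in every mouse except Mc1r LKO mouse 157, which had 1, so a difference was not detectable at this depth.

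The called genes were not those closest to Mc1r. Distance is given as the gap between gene bodies. Of 10 gene models within 100 kb, Mc1r among them, 5 were tested (Tcf25, Def8, Spire2, Afg3l1 and Fanca) and 0 were called. Spire2 and Fanca had few counts and wide intervals, so a change in them could have been missed. Between 100 and 250 kb, 2 of 9 tested genes were called, Zfp276 and Spata2l. Between 250 and 500 kb, 1 of 8 was called, and between 500 kb and 1 Mb 1 of 17. Tested or not, the windows beyond 100 kb hold 66, 21 and 43 gene models. The called gene between 250 and 500 kb was Rpl13, a protein of the large ribosomal subunit 302 kb from Mc1r, at a mean of 90.3 CPM (SD 4.88, n = 4) in control mice and of 117 CPM (SD 5.33, n = 4) in Mc1r LKO mice (log2 fold change 0.37, unadjusted p = 7.90e-04 and adjusted p = 0.734 in edgeR). The one beyond 500 kb was Piezo1, a mechanically gated channel 856 kb from Mc1r, which was lower in every Mc1r LKO mouse (log2 fold change -0.47, unadjusted p = 0.0102 and adjusted p = 0.734 in edgeR). In all, 4 of the 39 genes tested within 1 Mb were called, beside 5.31% of all genes tested. The median absolute log2 fold change was 0.042 within 100 kb, 0.10 from 100 to 250 kb, 0.11 from 250 to 500 kb and 0.13 from 500 kb to 1 Mb, beside 0.13 over all genes tested. Across the 9 tested flanking genes the absolute log2 fold change had a Spearman's rho of 0.27 with the gap, and across the 39 genes a rho of 0.10. With its sign kept, the log2 fold change had a rho of 0.48 across the 9 genes and of -0.19 across the 39. These are descriptions across genes of the same 8 libraries, which are not independent replicates.

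**Figure D4:**
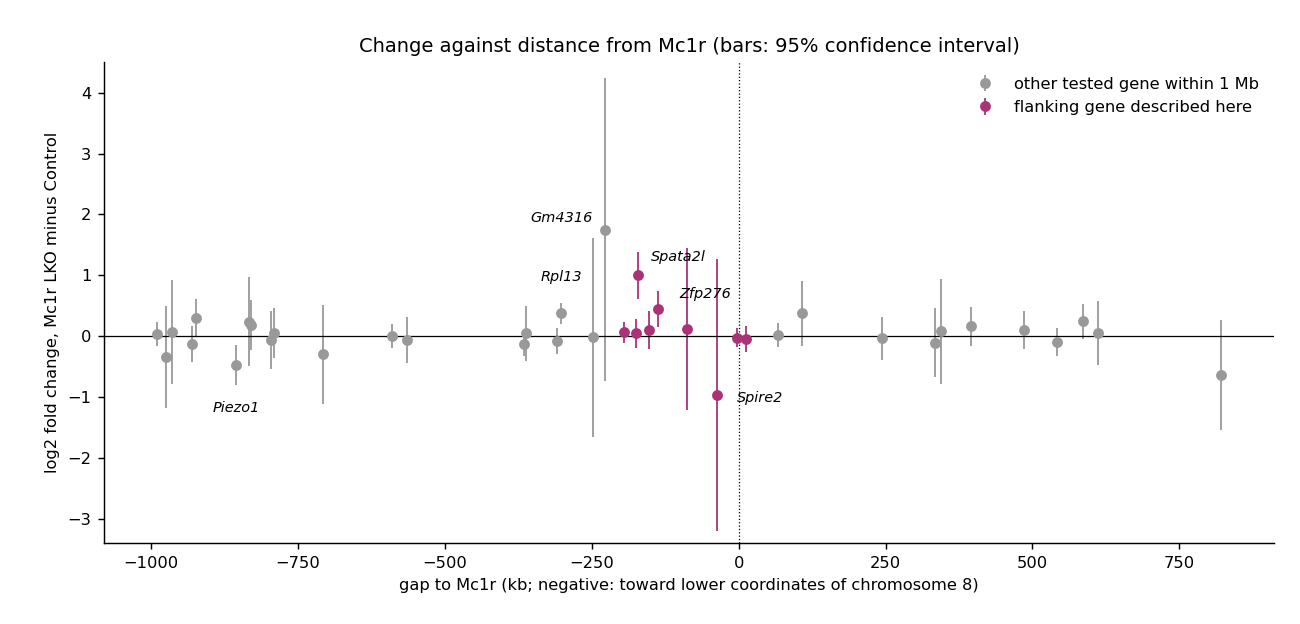
Log2 fold change of Mc1r LKO minus control (y axis) against the gap to Mc1r in kb (x axis, negative toward lower coordinates) for the 39 genes tested within 1 Mb, with bars for the 95% confidence interval and the 9 flanking genes in purple. The tested genes closest to Mc1r, Tcf25 and Def8, lie near 0 with short bars, while Spata2l (1.00) and Zfp276 (0.44) stand above it.

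Over the 8 mice, the genes whose log2 CPM was most like that of Spata2l were on other chromosomes. They were Eef1g, a subunit of translation elongation factor 1 (Pearson's r = 0.97, chromosome 19), the nucleoside transporter Slc29a1 (0.97, chromosome 17), Tmem126a (0.97, chromosome 7), Rbm4b (0.96, chromosome 19) and AC121821.1 (0.96, chromosome 18). Of the other flanking genes, Chmp1a (r = 0.74) and Zfp276 (0.72) were the most alike to Spata2l, and Cdk10, which overlaps it, had an r of -0.031. The 8 libraries and the difference between the genotypes are common to all these values, so they are given as a description.

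The partners and relatives of the flanking genes, 82 genes elsewhere in the genome of which 78 were tested, held 2 genes called higher and 1 called lower, and 0 passed after adjustment. The 7 genes around SPATA2 and CYLD were all tested and none was called, and the paralog Spata2 had a log2 fold change of -0.070 (unadjusted p = 0.644 in edgeR's quasi-likelihood test). Of 14 genes of the ESCRT-III machinery with CHMP1A, 12 had positive values and none was called, with Chmp1b at 0.020 and Chmp2a at 0.24 (unadjusted p = 0.827 and 0.0173 in edgeR). Among exchange factors for Rab5, the family of VPS9D1, Rabgef1 was higher (0.26) and Rin2 lower (-0.32), with unadjusted p-values of 0.0459 and 0.0433 in edgeR. Rubcn, a relative of DEF8 that restrains autophagy, was at -0.23 (unadjusted p = 0.0410 in edgeR), under the limit on the fold change. In the dysbindin group, Bloc1s2 was higher (0.46, unadjusted p = 0.0133 in edgeR), Dtnbp1, dysbindin itself, was at 0.22 (unadjusted p = 0.0377 in edgeR), and the paralog Dbndd2 was at 0.13. None was called of the 13 tested Fanconi anaemia genes, of the 7 genes around SPIRE2, where Spire1 was at -0.66 (unadjusted p = 0.161 in edgeR), of the 7 of ribosome-associated quality control, or of the 7 around CDK10. In all, 3 of these 78 genes were called, beside 5.31% of all genes tested.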

How the data were processed

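Liver RNA of 8 mice was sequenced as stranded mRNA libraries. The submitters' processing notes name Trim Galore 0.6.6, STAR 2.7.6a and Subread 2.0.1, and the authors deposited, per mouse, raw counts (whole read pairs for each gene, not normalized). Per the file headers, featureCounts counted by strand on an Ensembl annotation of GRCm38. With the options listed there, pairs on more than one gene of a strand are not counted, which touches Cdk10 on 186 exonic bases shared with Gm45842, a gene with 0 counts. Symbols were found for 55141 of 55487 identifiers. Total counts per mouse were between 10773151 and 24763375.

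From these counts, genes were kept by filterByExpr (minimum count 10, minimum total 15), scaled by TMM and compared with edgeR's glmQLFTest (version 4.0.16, run in R 4.3.3). P-values of 13400 genes were adjusted by Benjamini-Hochberg, after a test on simulated data. The study's methods name this filter, this normalization and the limits used for calls. CPM and RPKM use TMM library sizes, and log2 CPM a prior count of 2. Groups came from the sample titles. Mice were taken as separate animals from their numbers, and no batch is named in the labels. The flanking genes, the partner lists and the cell type genes were chosen with earlier results of these data known. Named besides the flanking genes were tested genes within 100 kb of Mc1r, genes within 1 Mb and partners with an unadjusted p under 0.05, the paralogs Spata2, Chmp1b, Spire1 and Dbndd2, and the 5 genes most like Spata2l. One gene model that spans Mc1r, Gm20388, was left out of the windows. Alternatives were DESeq2 1.42.0, limma-voom 3.58.1, RLE or no normalization, other filters and leaving out mice. Leaving out mice 181 and 182 together was added after the data were seen.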

Additional observations from a re-analysis of the deposited data

Results flagged for a closer look

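In control mouse 159, Def8 was at 43.9 CPM, far from the other control mice, which lay between 52.5 and 53.0 CPM. It was the only such value by Dixon's test among 18 groups of 4 mice (9 flanking genes in 2 genotypes), and chance flags about 5% of groups. Without mouse 159 the log2 fold change of Def8 was -0.095, and it was not called.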

How the results depend on the processing

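Spata2l and Zfp276 were higher in Mc1r LKO mice at an unadjusted p under 0.05 in each alternative model, filter and left-out mouse, but the exact permutation test gave p = 0.0571 for Zfp276. Leaving out single mice, Spata2l had log2 fold changes between 0.89 and 1.14 and adjusted p between 0.168 and 0.985. Over the other tests, normalizations and filters it lay between 0.95 and 1.00, with adjusted p between 6.66e-04 and 0.767. The number of flanking genes past an adjusted p of 0.05 went from 0 to 1 with the DESeq2 Wald test. Directions turned for 3 genes that were not called and for the median of the flanking genes, which was -0.0011 to 0.13 over the single mice left out and 0.017 with library size alone. Over the single mice left out, values lay between -0.0011 and 0.13 for Cdk10, between -0.095 and 0.016 for Def8 and between -0.26 and 0.50 for Fanca, and limma-voom gave -0.0011 for Fanca. The count of partner genes called, 3, was 5 with library size alone, 5 without mice 181 and 182, and between 1 (control mouse 193 left out) and 6 (Mc1r LKO mouse 182 left out) over the single mice, with 5 when control mouse 154 was left out. Counting distance between start sites left 0 called genes within 100 kb. With library size alone the share of calls that were higher over all genes fell from 49.8% to 25.3%, and Spata2l and Zfp276 stayed higher. Spire2 and Fanca had few counts and wide intervals. Spire2 had 19 counts in the shallowest library, of control mouse 159, and 0 in the deeper libraries of mice 181 and 182. It had 45 counts in control mouse 193 and 23 in Mc1r LKO mouse 157, the deepest libraries. The part of depth in its spread was not tested. No paired analysis was possible because the mouse numbers are not shared between the genotypes.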

Other observations

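Toward lower coordinates, beyond Chmp1a, lie Sult5a1, a sulfotransferase gene, and the uncharacterized Gm4316, both named after their values were seen. Sult5a1, 249 kb from Mc1r, had 2.87, 5.76, 14.8 and 3.67 CPM in control mice 154, 159, 181 and 193. It had 0.691, 5.33, 4.56 and 15.9 CPM in Mc1r LKO mice 141, 156, 157 and 182. The highest mouse of each genotype was again 181 or 182, the mice in which Spire2 had 0 counts. Gm4316, 228 kb from Mc1r, was also highest in these mice, with 40 counts in mouse 181 and 134 in mouse 182 against 1 to 22 in the other mice. Neither gene was called between the genotypes (log2 fold change -0.023 for Sult5a1 and 1.75 for Gm4316, adjusted p = 0.996 and 0.840 in edgeR's quasi-likelihood test).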
